A study of Mus musculus with 19 samples.

Results

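The respiratory chain and ATP synthase genes of mouse tibialis anterior muscle were described complex by complex in desmin knockout (KO) and wild-type (WT) animals of 2 ages. Members were all genes with a probe set of exactly 1 gene symbol whose symbol began with Nduf, Uqcr, Cox4 to Cox8 or Atp5, or was Sdha, Sdhb, Sdhc, Sdhd, Cyc1 or Cycs. This gave 86 of the 12393 genes on the array: 38 assigned to complex I, 4 to complex II, 9 to complex III, cytochrome c itself, 17 to complex IV and 17 to complex V. Each gene was represented by the probe set with the highest mean over the 19 arrays.

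The arrays came from aged KO muscle (12 to 14 months, 4 arrays), aged WT muscle (12 to 14 months, 5 arrays), adult KO muscle (7 to 9 weeks, 5 arrays) and adult WT muscle (7 to 9 weeks, 5 arrays), all of the 129/SVE strain. Every muscle had undergone 50 eccentric contractions (lengthening of the muscle while it pulls) 12 h before its RNA was taken, so all differences are between exercised muscles and none shows the response to exercise itself. The labels give the knockout no promoter or cell type, and they do not say whether the arrays of a group were separate animals. The sample titles end in codes of unstated meaning, and 8 of the 19 arrays share the stem of theirs with another array: adult WT replicates 3, 4 and 5, adult KO replicates 3 and 4, and aged WT replicates 4 and 5 with aged KO replicate 4. The p-values therefore rest on array-to-array spread, part of which may be technical. The series asked how the cytoskeleton shapes the transcriptional response of muscle to altered use.

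The respiratory chain passes electrons from NADH (complex I) and succinate (complex II) through coenzyme Q, complex III and cytochrome c to oxygen at complex IV. Complexes I, III and IV pump protons out of the mitochondrial matrix, and ATP synthase (complex V) lets them back to make ATP. Tibialis anterior is a mostly fast muscle. Slow, oxidative fibres hold more mitochondria, and heart and skeletal muscle carry their own isoforms of several complex IV subunits. Desmin is the muscle intermediate filament that ties neighbouring myofibrils together at the Z-disc and links them to mitochondria.

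Des itself had an intensity of 72.7 to 636 in aged KO muscle against 10749 to 12736 in aged WT muscle, and of 311 to 879 in adult KO muscle against 13700 to 22313 in adult WT muscle. The arrays also fell into 2 sets that the labels do not mention. On 8 arrays the poly-A control dap had an intensity of 1184 to 3103, against 1 to 17.4 on the other 11. The probe set for 18S ribosomal RNA, which comes from the sample and not from the added controls, divided the arrays in the same way, at 5836 to 19660 against 29.1 to 181. The 8 arrays were all 5 of aged WT muscle and adult KO replicates 3, 4 and 5. The division is called the control split here, and each comparison is also given from a fit with that split as a term. In that fit the adult KO comparison with adult WT, and the aged KO comparison with adult KO, rest on the 2 adult KO arrays without controls, and the aged WT differences rest on the contrast between the adult KO arrays with and without controls. The Gapdh 3' to 5' signal ratio, a sign of RNA quality, was 8.61 and 5.01 on aged KO replicates 2 and 3 and 0.766 to 0.968 on the other 17 arrays. Below, the arrays of a group are listed in replicate order. Ranges and overlaps of single genes are in deposited intensity unless stated, while differences and adjusted p come from the normalized log2 values.

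Promoters are shown for 4 members on which the results below turn. Sdhd is from complex II, whose 4 genes were called lower in aged than in adult WT muscle. Cycs was called higher in that comparison, and Cox7a1 and Atp5h lower in aged than in adult KO muscle. With the control split as a term the calls of complex II and Cycs were lost, and those of Cox7a1 and Atp5h were kept. Each sequence runs from 250 bases before to 50 bases after the annotated start (RefSeq, GRCm38.p6), 5′ to 3′ on the strand of the gene, with motif matches in capitals: Sdhd at chr9:50603800-50604099 (minus strand), Cycs at chr6:50566520-50566819 (minus strand), Cox7a1 at chr7:30183921-30184220 (plus strand) and Atp5h at chr11:115419870-115420169 (minus strand).
Sdhd: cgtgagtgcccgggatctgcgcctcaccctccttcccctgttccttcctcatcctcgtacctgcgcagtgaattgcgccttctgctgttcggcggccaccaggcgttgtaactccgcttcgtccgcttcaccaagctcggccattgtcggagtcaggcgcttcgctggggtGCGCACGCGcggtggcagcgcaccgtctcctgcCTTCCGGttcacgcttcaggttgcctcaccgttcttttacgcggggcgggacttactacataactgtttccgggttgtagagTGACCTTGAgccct
Cycs: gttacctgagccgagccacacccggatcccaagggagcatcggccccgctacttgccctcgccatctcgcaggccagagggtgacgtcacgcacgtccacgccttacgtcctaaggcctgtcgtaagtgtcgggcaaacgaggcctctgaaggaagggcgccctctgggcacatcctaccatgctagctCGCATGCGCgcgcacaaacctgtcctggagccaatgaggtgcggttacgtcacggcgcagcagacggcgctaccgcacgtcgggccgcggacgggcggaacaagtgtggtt
Cox7a1: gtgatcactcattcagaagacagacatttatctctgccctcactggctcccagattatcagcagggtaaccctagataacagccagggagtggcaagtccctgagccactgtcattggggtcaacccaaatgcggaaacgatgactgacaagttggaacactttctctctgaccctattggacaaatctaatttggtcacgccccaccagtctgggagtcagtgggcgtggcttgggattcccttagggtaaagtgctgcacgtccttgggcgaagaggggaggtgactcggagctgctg
Atp5h: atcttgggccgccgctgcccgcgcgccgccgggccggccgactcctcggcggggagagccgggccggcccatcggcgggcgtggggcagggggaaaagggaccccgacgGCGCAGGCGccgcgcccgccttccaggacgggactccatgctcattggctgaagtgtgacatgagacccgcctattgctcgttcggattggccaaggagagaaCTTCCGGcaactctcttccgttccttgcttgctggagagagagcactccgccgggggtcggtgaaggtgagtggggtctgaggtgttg
The motifs searched on both strands were the NRF1 core GCGCANGCG, the ETS core CCGGAAG read by GABPA, the ERR site TCAAGGTCA and the YY1 core AAGATGGCG. The Sdhd promoter held 1 match each of the NRF1, ETS and ERR motifs, Cycs held 1 NRF1 match, Atp5h held 1 NRF1 and 1 ETS match, and Cox7a1 held none. No matches overlapped in these 4 promoters.

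RefSeq promoters were matched for 71 of the 86 members (76 promoters, since some genes have several starts). The NRF1 core was present in 27.6% of them, against 6.25% of all 32851 promoters of the same length, and the ETS core in 23.7%, against 8.86%. The YY1 core was present in 7.89% against 1.4%, and the ERR site in 2.63% against 0.423%. The median GC content was 58.8% in the member promoters and 52.7% in all promoters, and its part in these shares was not tested. The NRF1 core was found in 8 of 37 complex I promoters, 2 of 3 of complex II, 2 of 5 of complex III, 1 of 12 of complex IV and 7 of 18 of complex V. A match describes letters and shows no binding.

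Of the 86 members, 83 were bright enough to be tested among 7436 genes. The 3 left out were Cox4i2 (32.0 to 149), Cox6b2 (6.83 to 81.7) and Cox7c (2.10 to 109), whose single-symbol probe sets were dim on every array. The median within-group SD of the tested members was 0.15 on the log2 scale, against 0.36 over all genes tested. The 2 sets were not matched for brightness, and single members spread more, with Sdhc at 0.62 in adult KO muscle. Of the 86 probe sets, 75 lay above the 90th percentile of all intensities on the array. The 4 group means of a member spanned a median of 0.36 on the log2 scale and less than 0.5 in 64 of 83 genes. The spans of all other genes were not counted. Sdhc spanned most, at 1.64, and Atp5e least, at 0.082.

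The lowest of the 4 group means was that of aged WT muscle for 46 of the 83 genes, of aged KO muscle for 26 and of adult WT muscle for 11, and never that of adult KO muscle. The highest mean was that of adult WT muscle for 41 genes, adult KO for 25, aged WT for 11 and aged KO for 6. These orders were counted for the members only, so they do not show a trait particular to them. Each array was then summarised by the median over a complex of each gene's log2 value minus its mean over all arrays. For complex II this median was -0.0042 to 0.11 in aged KO muscle against -0.52 to -0.075 in aged WT muscle, and -0.29 to 0.30 in adult KO muscle against 0.14 to 0.38 in adult WT muscle. Within adult KO muscle the 2 arrays without controls stood at 0.25 and 0.30 and the 3 with them at -0.23, -0.29 and -0.0086. For complex I the aged WT arrays lay at -0.17 to -0.030 and the adult WT arrays at 0.015 to 0.19, without overlap. Complexes II, III and V did not overlap between these 2 groups either, and complex IV did. The control split divides the same 2 groups.

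**Figure D1:**
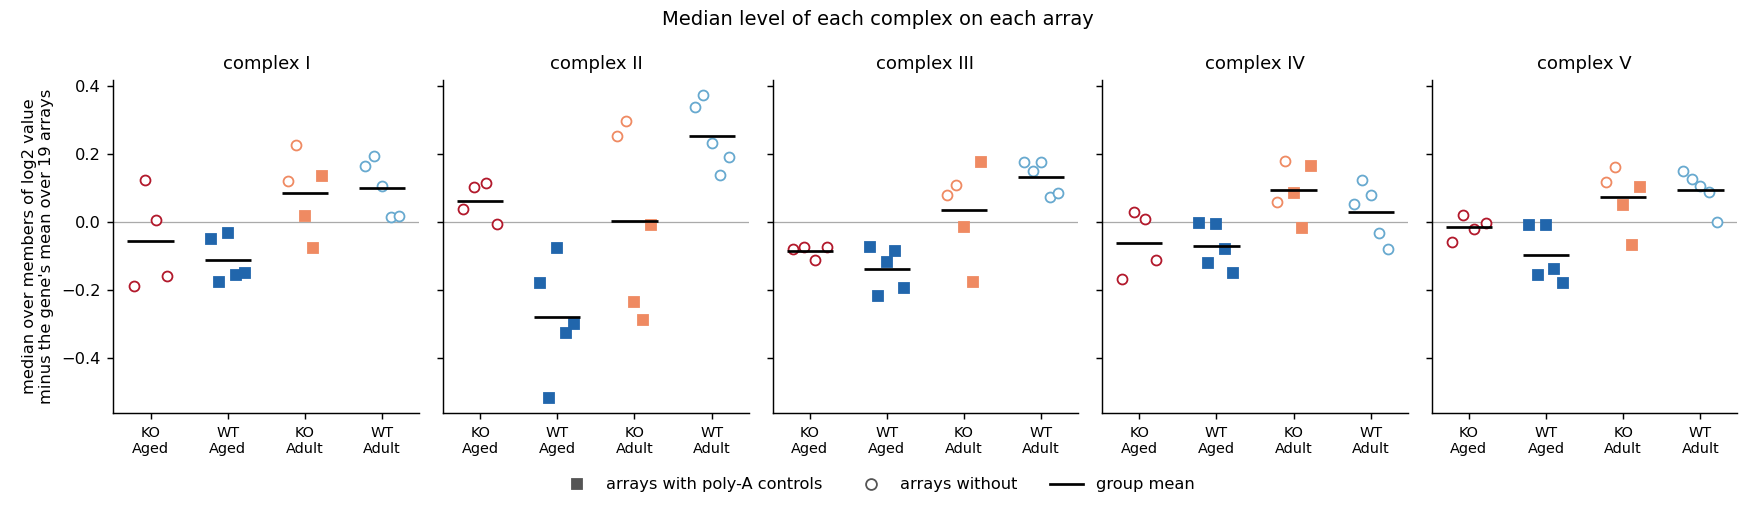
Median over the tested genes of each complex of the log2 value minus the gene's mean over 19 arrays, one point per array and one panel per complex, by group (aged KO, aged WT, adult KO, adult WT). Filled squares are arrays with poly-A controls, open circles arrays without, and bars the group means. The complex II panel shows the widest spread, from -0.52 to 0.38, and its adult KO arrays divide by control signal.

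Between aged and adult WT muscle, 25 of the 83 genes fell and 2 rose, beside 20.8% and 18.1% of all genes tested. The median log2 difference was -0.19 over the members and -0.030 over all genes. Without adult WT replicate 3 or without aged WT replicate 2 the number called was 17 in place of 27. A bulk measurement cannot tell fewer cells of a type from less RNA per cell. With median centring of the arrays in place of quantile normalization 5 fell and 2 rose, and the median of the members relative to that of all genes was -0.20, against -0.16 in the fit with quantile normalization and -0.074 with the mean of all probe sets of a gene. All of the aged WT arrays and none of the adult WT arrays carried the controls. With the control split as a term no member was called, beside 0.0672% of all genes higher and 0.0269% lower, and the members' median was -0.084, with 4 of 83 at an unadjusted p under 0.05.

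Between aged and adult KO muscle, 5 genes fell and none rose, beside 3.75% and 3.68% of all genes. The median was -0.090 over the members and 0.031 over all genes, and 64 of the 83 differences were below 0. The 5 calls became 2 without adult KO replicate 3, adult KO replicate 5 or aged KO replicate 4, and 0 without aged KO replicate 3. Without both aged KO arrays of high Gapdh ratio, replicates 2 and 3, the number was 0 as well. With all arrays 13 of the 83 had an unadjusted p under 0.05. The fit with the control split as a term gave 6 falls and no rise, beside 5.18% and 4.8%. Cox7a1, Atp5pb and Atp5h were called in both fits, and Sdhc, Ndufb6 and Ndufa12 only with the term. Ndufb6 and Ndufa12, accessory subunits of complex I, were then at -0.71 (SE 0.21, adjusted p = 0.0419) and -0.47 (SE 0.15, adjusted p = 0.0487). The members' median was then -0.19, with 67 of 83 below 0, and that of all genes -0.030. A fit of only the arrays of these groups without controls (4 aged KO, 2 adult KO) gave the same differences but called none of the 83, with 1 gene called of all tested (0.0134%). Relative to all genes the members' median was lower in aged KO muscle, at -0.12 with quantile normalization and -0.26 with median centring. With no normalization this value is the same -0.26 by construction, since centring shifts all genes of an array alike.

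Between KO and WT muscle of the same age few members changed in adults. In adult KO muscle 1 rose and 2 fell, beside 7.32% and 9.37% of all genes, with a median of -0.025. The median of all genes was 0.041 there. Median centring gave 5 rises and no fall, with a median of 0.19 over the members and 0.20 over all genes, and no normalization gave 1 rise and 4 falls, with -0.063 and -0.054. The sign of the members' median thus turned with the scaling. With the title code as a random block, an alternative chosen after seeing the data, 1 of the 3 was still called. The 3 calls became 1 without adult WT replicate 3 or adult KO replicate 3, 6 without adult KO replicate 1 and 7 without adult KO replicate 2. In aged KO muscle 10 rose and 6 fell, beside 16.9% and 12.5%, with a median of 0.070 over the members and 0.073 over all genes. Of 11 slow oxidative fibre markers 7 rose in the same comparison, and their part in it was not tested. Median centring left 1 rise and no fall there, no normalization 4 and 4, and leaving out both aged KO arrays of high Gapdh ratio 1 and 3. The 16 calls became 10 without aged WT replicate 1, 9 without aged WT replicate 4 or 5, 7 without aged WT replicate 2 or aged KO replicate 2 or 4, and 5 without aged KO replicate 3. Once the control split was a term none was called in adult muscle (4 of 83 had an unadjusted p under 0.05), beside 3.56% higher and 3.11% lower, and 1 rose in aged muscle, beside 2.95% and 2.54%. That gene was Ndufa5, named after its values were seen, at 0.75 (SE 0.20, adjusted p = 0.0393) with the term and 0.052 (SE 0.17, adjusted p = 0.842) without it.

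The genotype by age interaction is the KO minus WT difference in aged muscle minus that in adult muscle. Its sign gives the direction of this change and not whether the KO difference grew in size. It was positive for 7 genes and negative for 4, beside 14.3% and 10.8% of all genes. Median centring gave 1 and 6, and no normalization 5 and 1. With the title code as a random block 7 were called. The 11 calls became 6 without aged KO replicate 3 and 7 without any 1 of 9 arrays: adult WT replicates 1 and 3, aged WT replicates 1, 2, 4 and 5, adult KO replicates 3 and 4, and aged KO replicate 4. The term left none called, with 8 of 83 at an unadjusted p under 0.05, beside 0.0134% higher and 0.0134% lower.

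**Figure D2:**
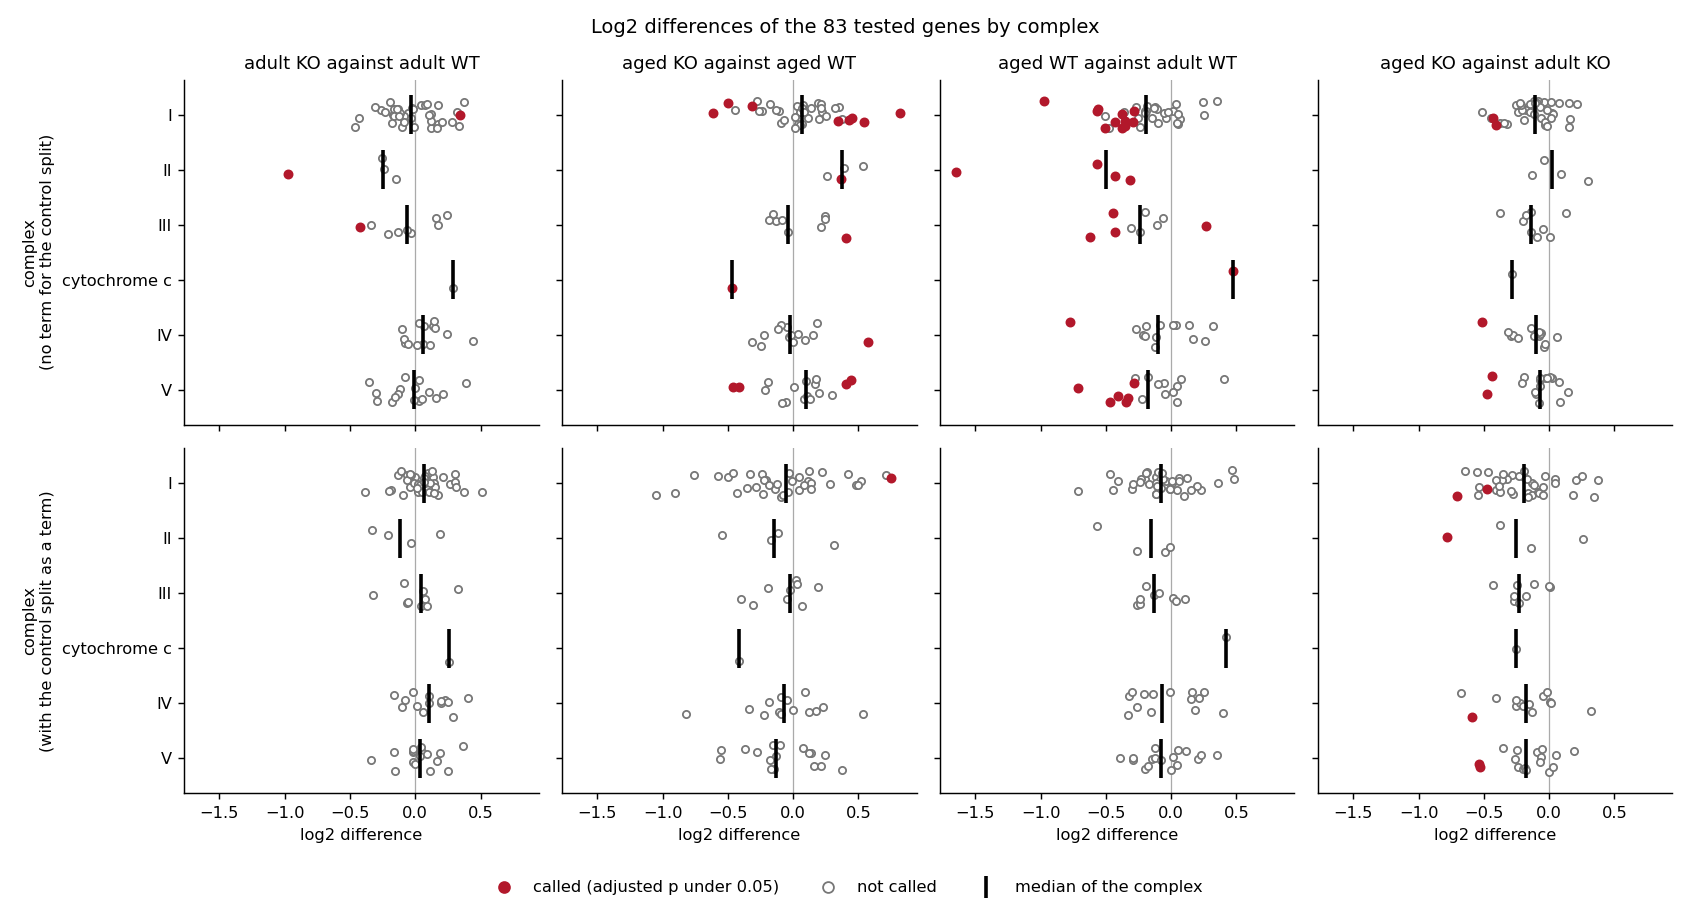
Log2 differences of the 83 tested genes by complex (vertical) in 4 comparisons (columns), without a term for the control split in the upper panels and with it in the lower panels. Filled red points are called at an adjusted p under 0.05, open points are not, and black bars are complex medians. The 25 genes called lower in aged than in adult WT muscle in the upper panels have no counterpart in the lower ones, where 6 are called lower in aged than in adult KO muscle.

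Complex I, which oxidises NADH, had 38 tested genes: 6 core subunits, 27 accessory subunits and 5 assembly factors. Between aged and adult WT muscle 11 fell and none rose, with a median of -0.20. The falls took in 1 of the 6 core subunits, 10 of the 27 accessory subunits and none of the 5 assembly factors, beside 20.8% of all genes. Aged against adult KO muscle showed 2 falls, beside 3.75% of all genes, and a median of -0.11. In aged KO against aged WT muscle 5 rose and 3 fell (median 0.070), beside 16.9% and 12.5%. In adult KO against adult WT muscle 1 rose (median -0.029), beside 7.32%. The 1 core subunit that fell in aged WT muscle was Ndufv1, which binds NADH, at -0.43 (SE 0.11, adjusted p = 0.00601). Members not called there could also have lower means. The core subunit Ndufs8 had a mean log2 value of 13.25 in aged and 13.73 in adult WT muscle. The assembly factor Ndufaf3 had 9.11 and 9.62. The counts by subgroup therefore do not show that core subunits and assembly factors were spared.

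Ndufs4, an accessory subunit of the electron input arm whose loss in mice causes a brain disease like Leigh syndrome, was higher in KO muscle at both ages. Its intensity was 5860, 7110, 6316 and 5926 in aged KO muscle, against 5165, 4296, 4946, 3981 and 4654 in aged WT muscle, and 5858, 6837, 5410, 5376 and 6533 in adult KO muscle, against 4618, 4643, 4015, 4557 and 4340 in adult WT muscle. Neither pair of KO and WT groups overlapped. The difference was 0.54 (SE 0.12, adjusted p = 0.00272) between aged KO and WT muscle and 0.34 (SE 0.11, adjusted p = 0.0437) between adult KO and WT muscle. With the term the values were 0.50 (adjusted p = 0.132) and 0.37 (adjusted p = 0.132). The adult call was lost when any of 13 single arrays was left out, with an adjusted p of up to 0.112. A dimmer probe set of Ndufs4 went the other way in aged KO muscle, at -0.86 (adjusted p = 0.00841 over all probe sets), so the gene's direction there depends on the probe set, and the mean of its probe sets gave 0.044.

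Ndufb1, an accessory subunit of the membrane arm, gave the largest rise in aged KO muscle and was dim. Its intensity was 234, 443, 480 and 406 in aged KO muscle, against 177, 217, 292, 140 and 200 in aged WT muscle, and 416, 459, 199, 196 and 377 in adult KO muscle, against 431, 427, 408, 479 and 346 in adult WT muscle. Aged KO replicate 1 lay among the aged WT arrays, and adult KO replicates 3 and 4 lay with the aged WT arrays too. The difference was 0.82 (SE 0.29, adjusted p = 0.0419) between aged KO and WT muscle and -0.97 (SE 0.28, adjusted p = 0.0111) between aged and adult WT muscle. With the term these became -0.037 and -0.11 (adjusted p = 0.967 and 0.914). Ndufb3, also of the membrane arm, had 0.45 (SE 0.13, adjusted p = 0.0146) in aged KO against WT muscle, without overlap of the 2 groups, and -0.38 (SE 0.12, adjusted p = 0.0223) in aged against adult WT muscle. The other rises in aged KO muscle were Ndufa2 at 0.42 (SE 0.16, adjusted p = 0.0495) and Ndufa13 at 0.35 (SE 0.13, adjusted p = 0.0462).

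The falls in aged KO muscle included Ndufc1 and Ndufb8, accessory subunits of the membrane arm, and Ndufaf5, an assembly factor. Ndufc1 had an intensity of 9296, 13878, 11567 and 10504 in aged KO muscle, against 14595, 15488, 16387, 14280 and 15301 in aged WT muscle, and 14718, 17676, 15711, 15362 and 15345 in adult KO muscle, against 15168, 16219, 12543, 12445 and 12586 in adult WT muscle. All 4 aged KO arrays were below every aged WT and every adult KO array. The difference was -0.50 (SE 0.12, adjusted p = 0.00463) against aged WT muscle and -0.43 (SE 0.12, adjusted p = 0.0367) against adult KO muscle, or -0.46 and -0.40 with the term (adjusted p = 0.162 and 0.0924). Ndufb8 followed the same order, with -0.31 (SE 0.11, adjusted p = 0.0351) against aged WT muscle and -0.41 (SE 0.11, adjusted p = 0.0281) against adult KO muscle, and no overlap in either. Ndufaf5 had -0.62 (SE 0.20, adjusted p = 0.0266) against aged WT muscle, with overlap of 1 array in each group, and -1.05 (SE 0.31, adjusted p = 0.0559) with the term. Ndufb9, the complex I member with the brightest probe set, was not called in any comparison, its largest difference being -0.14 (SE 0.11, adjusted p = 0.499) between aged and adult KO muscle.

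Complex II, succinate dehydrogenase, is shared by the citric acid cycle and the chain, and all of its subunits are nuclear-encoded. All 4 of its genes fell in aged against adult WT muscle, with a median of -0.50, beside 20.8% of all genes. In aged KO against aged WT muscle 1 of 4 rose, beside 16.9% of all genes. In adult KO against adult WT muscle 1 fell, beside 9.37%, and none changed between aged and adult KO muscle. The interaction was called and positive for 3 of 4, Sdha, Sdhb and Sdhc, beside 14.3% of all genes. None of these was called with the term, and 1 gene, Sdhc, was called lower in aged than in adult KO muscle.

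Sdhc, a membrane anchor with a cytochrome b haem, had the largest differences of all members. Its intensity was 4789, 3044, 4183 and 4483 in aged KO muscle, against 2640, 2815, 3208, 2896 and 2954 in aged WT muscle, and 8564, 6999, 3407, 3029 and 3980 in adult KO muscle, against 9035, 10129, 10315, 8118 and 7987 in adult WT muscle. Of the 2 adult KO arrays without controls 1 lay inside the adult WT range of intensity and 1 below it. On the normalized log2 scale both lay below it, at 12.98 and 12.65 against a lowest of 13.02. The 3 adult KO arrays with controls lay within the range of the aged groups. The difference was -1.64 (SE 0.23, adjusted p = 8.12e-05) between aged and adult WT muscle, 3.13-fold lower without overlap, and -0.98 (SE 0.23, adjusted p = 0.00714) between adult KO and WT muscle. With the term these were -0.56 (SE 0.25, adjusted p = 0.324) and -0.33 (SE 0.19, adjusted p = 0.305). Among adult KO arrays alone, the 3 with controls differed from the 2 without by -1.08 (SE 0.20, adjusted p = 0.0105). In that contrast 2 of the 83 members were higher and 5 lower on the arrays with controls, beside 16.4% and 17.5% of all genes tested. Aged against adult KO muscle gave -0.13 (SE 0.24, adjusted p = 0.804) without the term and -0.78 (SE 0.20, adjusted p = 0.026) with it, and the 4 aged KO arrays, at 3044 to 4789, were all below the 2 adult KO arrays without controls.

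Sdhd, the other membrane anchor, had an intensity of 4477, 6030, 6142 and 4732 in aged KO muscle, against 4324, 3553, 4859, 4108 and 4242 in aged WT muscle, and 6833, 8287, 4561, 4567 and 5468 in adult KO muscle, against 6760, 7557, 6205, 5646 and 4774 in adult WT muscle. Its difference between aged and adult WT muscle was -0.57 (SE 0.16, adjusted p = 0.01), and -0.0099 with the term (adjusted p = 0.987). By intensity 1 adult WT array of Sdhd was inside the aged WT range. The normalized log2 values did not overlap (adult WT lowest 12.33, aged WT highest 12.25). The mean of all its probe sets gave 0.093 and an adjusted p of 0.77, so its call rests on the brightest one. Sdhb, the iron-sulphur subunit, had an intensity of 12979, 16860, 16196 and 13859 in aged KO muscle, against 12492, 11009, 13911, 11308 and 12131 in aged WT muscle, and 16620, 18414, 12239, 11735 and 14068 in adult KO muscle, against 17046, 17457, 19647, 17253 and 17142 in adult WT muscle. All 5 aged WT arrays were below all 5 adult WT arrays, with a difference of -0.43 (SE 0.12, adjusted p = 0.0127) and -0.051 with the term (adjusted p = 0.911). Sdha, the flavoprotein that oxidises succinate, had an intensity of 7429, 10696, 8367 and 7885 in aged KO muscle, against 7058, 6093, 7629, 6144 and 7120 in aged WT muscle, and 7407, 8025, 6912, 6438 and 8410 in adult KO muscle, against 8005, 8057, 8876, 8152 and 8857 in adult WT muscle. It differed by -0.31 (SE 0.12, adjusted p = 0.0414) between aged and adult WT muscle and by 0.37 (SE 0.12, adjusted p = 0.0325) between aged KO and WT muscle. The first of these calls was lost without any of 8 single arrays, with an adjusted p of up to 0.109, and with median centring only Sdhc of the 4 was still called in aged WT muscle.

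**Figure D3:**
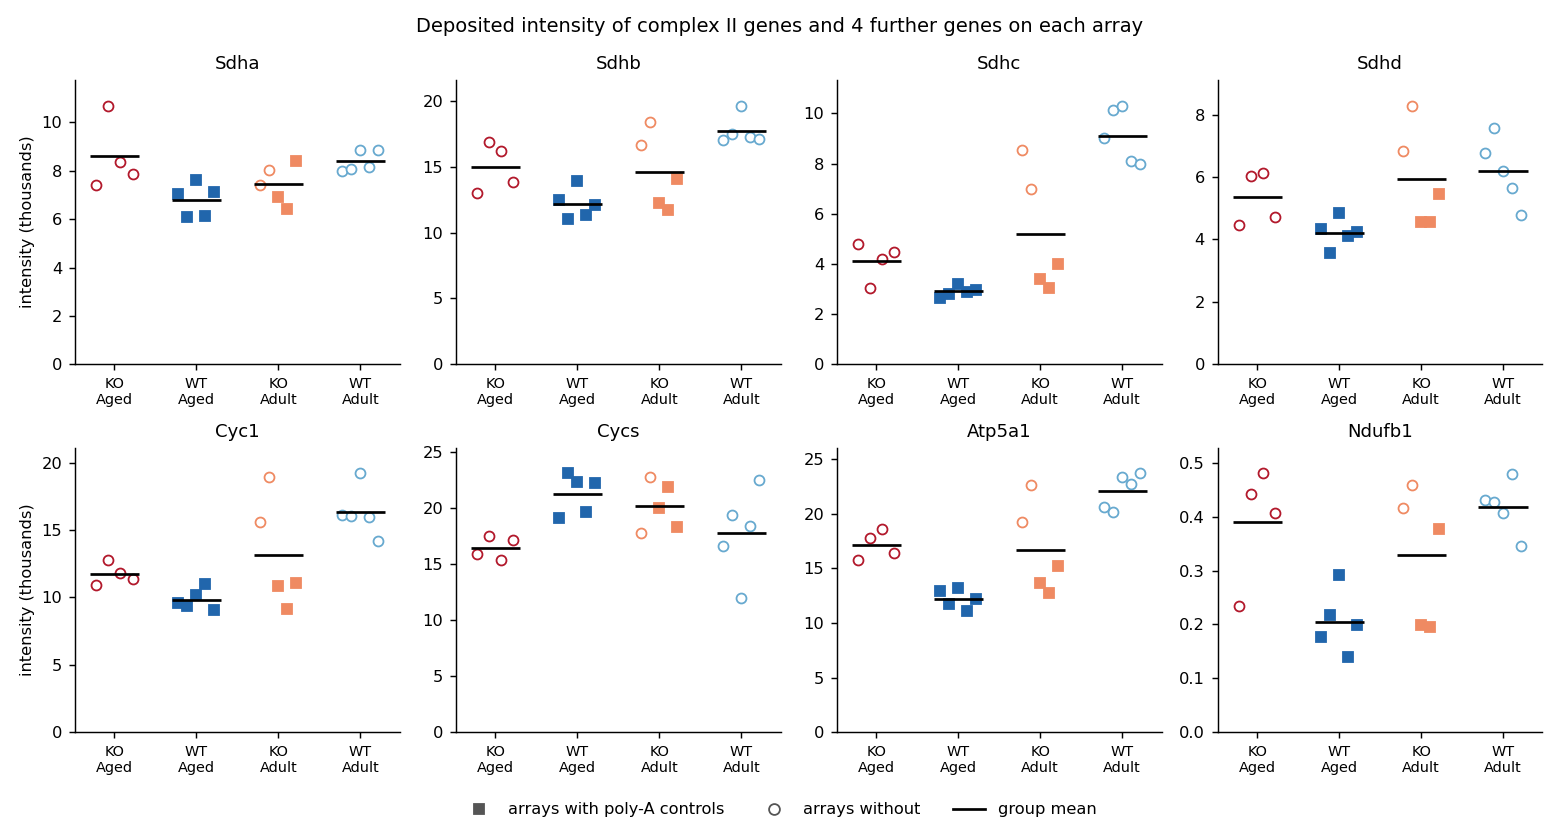
Deposited intensity (scaled as on the axis, each axis starting at 0) of the 4 complex II genes, of Cyc1 and Cycs, and of Atp5a1 and Ndufb1 on each array, by group (aged KO, aged WT, adult KO, adult WT). Filled squares are arrays with poly-A controls, open circles arrays without, and bars the group means. For Sdhc the 3 adult KO arrays with controls (3029 to 3980) lie far below the 2 without (6999 and 8564), while for Cycs all 4 aged KO arrays (15360 to 17494) lie below all 5 aged WT arrays (19119 to 23098).

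Complex III passes electrons from coenzyme Q to cytochrome c. Of its 9 genes 3 fell and 1 rose in aged against adult WT muscle (median -0.24), beside 20.8% and 18.1% of all genes. In aged KO against aged WT muscle 1 rose, beside 16.9%, and in adult KO against adult WT muscle 1 fell, beside 9.37%. None changed between aged and adult KO muscle. The 1 rise in aged KO muscle was Uqcr10, a small accessory subunit, at 0.40 (SE 0.14, adjusted p = 0.0353). Both catalytic subunits encoded in the nucleus fell in aged WT muscle, the Rieske iron-sulphur protein Uqcrfs1 with -0.45 (SE 0.11, adjusted p = 0.00429). The other, cytochrome c1 (Cyc1), had an intensity of 10905, 12752, 11806 and 11377 in aged KO muscle, against 9577, 9345, 10181, 10971 and 9085 in aged WT muscle, and 15579, 18966, 10833, 9118 and 11057 in adult KO muscle, against 16110, 16045, 19191, 15972 and 14185 in adult WT muscle. The aged WT and adult WT arrays did not overlap, and adult KO replicates 3, 4 and 5 lay with the aged groups. The difference was -0.63 (SE 0.15, adjusted p = 0.00425), and 0.014 (SE 0.19, adjusted p = 0.979) with the term. Between adult KO arrays with and without controls Cyc1 differed by -0.64 (SE 0.17, adjusted p = 0.0303).

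Uqcrc1, a core protein of complex III, had an intensity of 9534, 10877, 10419 and 8596 in aged KO muscle, against 11460, 10826, 11440, 9495 and 10669 in aged WT muscle, and 12610, 13800, 9323, 9308 and 12801 in adult KO muscle, against 14413, 14492, 19144, 15729 and 14822 in adult WT muscle. All adult KO arrays lay below all adult WT arrays, with a difference of -0.43 (SE 0.12, adjusted p = 0.0188), and so did all aged WT arrays, with -0.43 (SE 0.12, adjusted p = 0.00845). With the term these were -0.32 and -0.26 (adjusted p = 0.192 and 0.543). With median centring the adult KO difference was -0.20 (adjusted p = 0.436), and its call was lost without adult WT replicate 3 or adult KO replicate 3 or 4, at an adjusted p of 0.0551, 0.0583 and 0.0521. Uqcrb, an accessory subunit and the brightest probe set of complex III, was the 1 gene of the complex that rose in aged WT muscle, by 0.27 (SE 0.097, adjusted p = 0.0362), and its call was lost without any 1 of 8 arrays. Its deposited intensities overlapped, at 23249 to 29564 in aged WT muscle and 21268 to 34084 in adult WT muscle, and their means were 27000 and 27038. Without normalization between arrays the difference was 0.019 (adjusted p = 0.924), while the median of all genes was -0.097. The call thus depends on how the arrays are scaled to each other.

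Cytochrome c (Cycs), the mobile carrier between complexes III and IV and a trigger of apoptosis once released, was one of the 2 members that rose in aged WT muscle. Its intensity was 15879, 17494, 15360 and 17161 in aged KO muscle, against 19119, 23098, 22335, 19627 and 22214 in aged WT muscle, and 17825, 22819, 20046, 21901 and 18339 in adult KO muscle, against 16620, 19350, 11994, 18414 and 22476 in adult WT muscle. All 4 aged KO arrays were below all 5 aged WT arrays, and the adult WT intensities overlapped both. On the normalized log2 scale the adult WT arrays reached 14.33, below the lowest aged WT array at 14.47. Cycs rose in aged against adult WT muscle by 0.47 (SE 0.14, adjusted p = 0.0151) and fell in aged KO against aged WT muscle, with -0.47 (SE 0.15, adjusted p = 0.0262). The term left both values near this size, at 0.42 and -0.42, with adjusted p of 0.442 and 0.314. Without adult WT replicate 3, whose value of 11994 was the lowest, the first was 0.33 and still called, and without aged KO replicate 3 or 2 the second had an adjusted p of 0.086 and 0.0525.

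Complex IV, cytochrome c oxidase, reduces oxygen to water. Of its 14 tested genes 1 fell in aged against adult WT muscle, beside 20.8% of all genes. In aged KO against aged WT muscle 1 rose, beside 16.9%, and in aged against adult KO muscle 1 fell, beside 3.75%. In adult KO against adult WT muscle none was called. The 1 gene in the first 2 of these comparisons was Cox7a2l, a relative of subunit 7a that joins complexes III and IV into supercomplexes. Its intensity was 2611, 3183, 3161 and 2927 in aged KO muscle, against 2168, 1790, 2091, 1972 and 2044 in aged WT muscle, and 4318, 3945, 2957, 2294 and 3485 in adult KO muscle, against 4378, 4262, 3649, 2687 and 2496 in adult WT muscle. All 5 aged WT arrays were below every aged KO and every adult WT array. The difference was -0.78 (SE 0.17, adjusted p = 0.00247) between aged and adult WT muscle and 0.57 (SE 0.18, adjusted p = 0.0249) between aged KO and WT muscle, and -0.30 and 0.090 with the term (adjusted p = 0.61 and 0.867). The rarer isoforms Cox4i2, of lung, and Cox6b2, of testis, were too dim to test, and Cox8c, also of testis, read 81.4 to 188 over all arrays and was not called. Cox7c, which is not one of these rarer isoforms, was too dim to test by its single-symbol probe sets. This does not show that its transcript is scarce.

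Cox7a1, the heart and skeletal muscle isoform of subunit 7a, fell in aged against adult KO muscle. Its intensity was 9652, 13972, 10934 and 9962 in aged KO muscle, against 12140, 11038, 12911, 11703 and 11094 in aged WT muscle, and 16786, 19018, 14855, 13665 and 17656 in adult KO muscle, against 15542, 16433, 15484, 12749 and 13365 in adult WT muscle. Aged KO replicate 2, with the highest Gapdh ratio, read 13972 and was the only aged KO array inside the adult KO range of intensity. On the normalized log2 scale this array was at 13.65, below every adult KO array (lowest 13.79). The difference was -0.51 (SE 0.13, adjusted p = 0.0202) and -0.59 (SE 0.16, adjusted p = 0.0288) with the control split as a term. Without both aged KO arrays of high Gapdh ratio it was -0.57 (adjusted p = 0.0793), and without adult KO replicate 5 or aged KO replicate 3 the adjusted p was 0.0505 and 0.0704. In aged against adult WT muscle Cox7a1 differed by -0.27 (SE 0.12, adjusted p = 0.0821).

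None of the other paired isoforms was called in any comparison, nor were Cox4i1, Cox6b1 and Cox6c. Cox4i1, the common form of subunit 4, had differences of -0.036 in aged KO against WT muscle, -0.078 in adult KO against WT muscle, -0.12 in aged against adult WT muscle and -0.077 in aged against adult KO muscle. Cox6b1, the brightest probe set of the complex, had 0.034, 0.11, 0.011 and -0.067 in the same comparisons. Cox6c had -0.047, 0.24, 0.26 and -0.029. The muscle isoforms Cox6a2 and Cox8b were lower in aged than in adult WT muscle by values that did not pass, -0.21 (SE 0.099, adjusted p = 0.0939) and -0.19 (SE 0.12, adjusted p = 0.227). The common isoforms Cox6a1, Cox7a2 and Cox8a gave 0.14, -0.087 and 0.32 there.

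To compare isoforms within an array, the log2 value of the muscle isoform minus that of the common one was taken for 3 pairs in 4 comparisons, 12 values adjusted together. This shows unequal change and not the ratio of the 2 transcripts. Cox7a1 minus Cox7a2 was -0.62, -0.65, -0.90 and -0.79 in aged KO muscle, against -0.47, -0.61, -0.41, -0.41 and -0.57 in aged WT muscle. It was -0.33, -0.42, -0.25, -0.38 and -0.16 in adult KO muscle, against -0.31, -0.43, -0.14, -0.36 and -0.32 in adult WT muscle. The 4 aged KO arrays were the 4 lowest of all 19. The difference was -0.43 between aged and adult KO muscle (2-sided exact permutation test, adjusted p = 0.0317), -0.25 between aged KO and WT muscle (exact adjusted p = 0.0476), -0.18 between aged and adult WT muscle (exact adjusted p = 0.0476) and 0.0078 between adult KO and WT muscle (exact adjusted p = 0.929).

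Cox8b minus Cox8a was lower in adult KO than in adult WT muscle, with a difference of -0.50 (4.11 ± 0.19 against 4.61 ± 0.14, SD, n = 5 each, exact adjusted p = 0.0317), with no overlap. It was also lower in aged than in adult WT muscle (4.10 ± 0.28 against 4.61 ± 0.14, SD, n = 5 each, exact adjusted p = 0.0317). Neither gene of the pair was called by itself in these comparisons, and the dimmer Cox8a had 0.44 (SE 0.19, adjusted p = 0.115) in adult KO against WT muscle. Cox6a2 minus Cox6a1 was lower in aged than in adult WT muscle (1.71 ± 0.20 against 2.06 ± 0.24, SD, n = 5 each, exact adjusted p = 0.0476). The remaining 6 values, with raw exact p of 0.294 to 0.929, did not pass. In groups of 5 and 5 the smallest p possible is 0.00794, and in groups of 4 and 5 it is 0.00794 as well. The Cox7a1 minus Cox7a2 difference in aged WT muscle was -0.093 (exact adjusted p = 0.434) without quantile normalization. Leaving out each array of the groups compared in turn ended the call of Cox7a1 minus Cox7a2 in 9 of 10 cases in aged against adult WT muscle and in 7 of 9 in both aged KO comparisons. The call of Cox6a2 minus Cox6a1 ended in 9 of 10 and that of Cox8b minus Cox8a in 5 of 10, both in aged against adult WT muscle, while Cox8b minus Cox8a in adult KO against WT muscle was called in all 10. Fewer arrays raise the smallest p possible, to 0.0286 with 4 and 4 and 0.0179 with 3 and 5. With only arrays without controls Cox7a1 minus Cox7a2 differed by -0.37 between aged and adult KO muscle and Cox8b minus Cox8a by -0.35 between adult KO and WT muscle (exact adjusted p = 0.2 for both). With 2 adult KO arrays no value could pass, and both raw exact p, 0.0667 and 0.0476, were the smallest possible there.

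**Figure D4:**
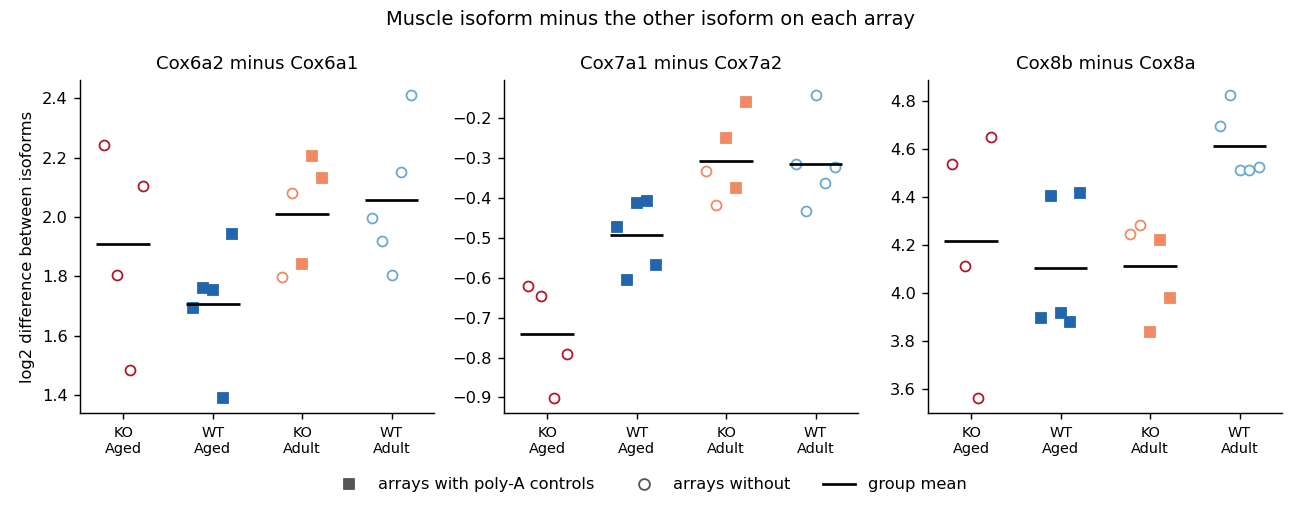
Log2 value of the muscle isoform minus that of the common isoform on each array for 3 complex IV subunits, by group (aged KO, aged WT, adult KO, adult WT). Filled squares are arrays with poly-A controls, open circles arrays without, and bars the group means. For Cox7a1 minus Cox7a2 the 4 aged KO arrays, at -0.90 to -0.62, are the lowest of all, and for Cox8b minus Cox8a the adult WT arrays, at 4.51 to 4.82, lie above every adult KO array.

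Complex V, ATP synthase, has a catalytic head (F1), a membrane part (Fo) whose ring turns, and a peripheral stalk that holds the head still. Of its 17 genes 6 fell and none rose in aged against adult WT muscle (median -0.17), beside 20.8% and 18.1% of all genes. The falls were 3 of 5 in F1 (Atp5a1, Atp5b and Atp5d), 3 of 8 in Fo (Atp5g2, Atp5k and Atp5mpl) and none of the 4 stalk genes. Whether the stalk genes were spared was not tested. Between aged and adult KO muscle 2 fell, Atp5pb and Atp5h of the stalk, beside 3.75% of all genes. In aged KO against aged WT muscle 2 rose (Atp5a1 and Atp5mpl) and 2 fell, again Atp5pb and Atp5h, beside 16.9% and 12.5%. In adult KO against adult WT muscle none changed. That the falls lay in the stalk is a description and was not tested against the other genes.

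Atp5a1, the alpha subunit of the catalytic head, had an intensity of 15804, 17746, 18623 and 16379 in aged KO muscle, against 12963, 11704, 13165, 11092 and 12200 in aged WT muscle, and 19287, 22629, 13659, 12732 and 15217 in adult KO muscle, against 20588, 20178, 23379, 22704 and 23690 in adult WT muscle. Aged WT muscle was below every array of the aged KO and adult WT groups, and the adult KO arrays with controls were below those without. The difference was -0.72 (SE 0.14, adjusted p = 0.00107) between aged and adult WT muscle and 0.44 (SE 0.15, adjusted p = 0.0313) between aged KO and WT muscle. The term brought these to -0.14 and -0.13 (adjusted p = 0.712 and 0.698). Adult KO arrays with controls differed from those without by -0.57 (SE 0.16, adjusted p = 0.0347). Of its probe sets, a dim one of mean intensity 266 was called the other way in aged WT muscle, at 1.85 (adjusted p = 0.0204 over all probe sets), and a second bright one had -0.37 (adjusted p = 0.0339). The mean of all probe sets turned the sign of both differences, to 0.26 and -0.73.

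Atp5pb, subunit b of the peripheral stalk, had an intensity of 12070, 14997, 12671 and 13389 in aged KO muscle, against 15239, 18365, 17483, 17407 and 18090 in aged WT muscle, and 18809, 20967, 18241, 17214 and 17881 in adult KO muscle, against 17596, 19742, 19553, 19381 and 20896 in adult WT muscle. All 4 aged KO arrays were below every aged WT and adult KO array. The difference was -0.46 (SE 0.11, adjusted p = 0.00474) against aged WT muscle and -0.48 (SE 0.11, adjusted p = 0.0155) against adult KO muscle. With the term these were -0.56 (SE 0.18, adjusted p = 0.0714) and -0.53 (SE 0.14, adjusted p = 0.0264), so the second was called in both fits. Without aged KO replicate 3 the second had an adjusted p of 0.0614.

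Atp5h, subunit d of the same stalk, had an intensity of 10798, 14977, 11639 and 11984 in aged KO muscle, against 14999, 15919, 16668, 14823 and 16010 in aged WT muscle, and 17901, 19470, 16296, 15656 and 16113 in adult KO muscle, against 16466, 17683, 16594, 14509 and 15906 in adult WT muscle. All 4 aged KO arrays were below every adult KO array, and 1 of them, replicate 2 at 14977, was inside the aged WT range of intensity. On the normalized log2 scale replicate 2 was at 13.77, below every aged WT array (lowest 13.98). The difference was -0.41 (SE 0.12, adjusted p = 0.014) against aged WT muscle and -0.44 (SE 0.12, adjusted p = 0.0317) against adult KO muscle, and -0.56 (SE 0.19, adjusted p = 0.082) and -0.53 (SE 0.14, adjusted p = 0.0316) with the term. The second call was lost without adult KO replicate 1 or 3 or aged KO replicate 3 or 4, at adjusted p of 0.0531 to 0.117. With the mean of all probe sets the aged KO differences from adult KO muscle were -0.27 for Atp5pb (adjusted p = 0.136) and -0.20 for Atp5h (adjusted p = 0.351).

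**Figure D5:**
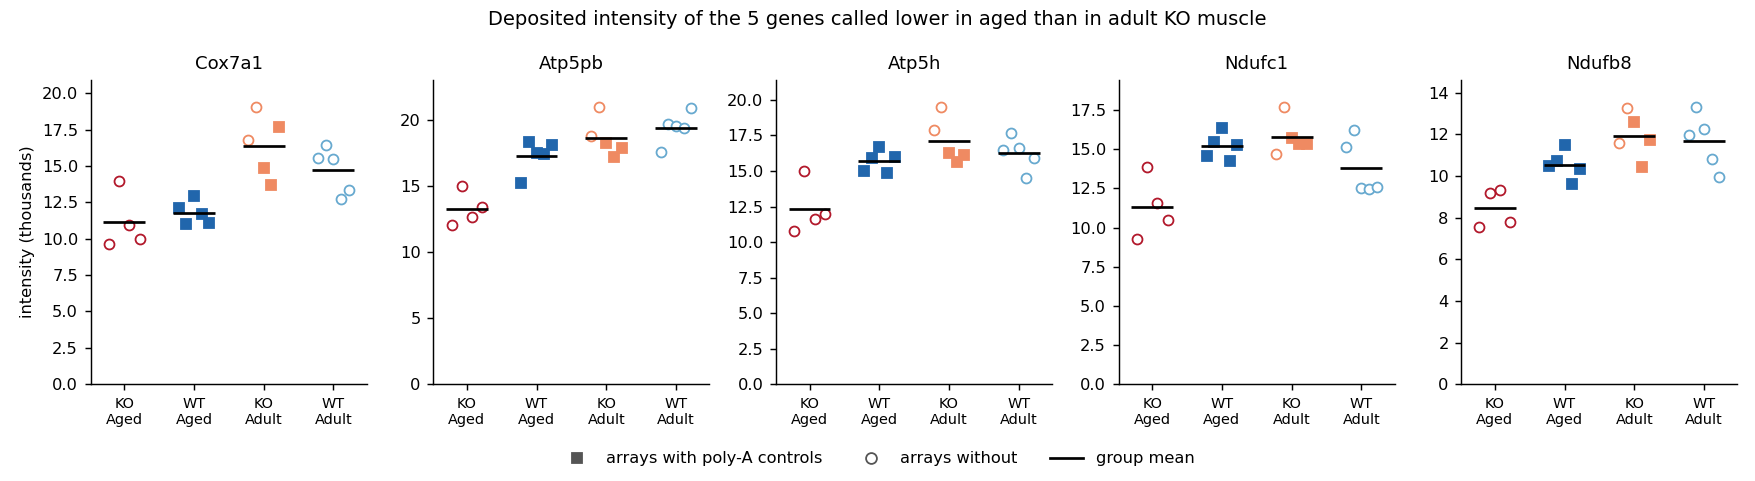
Deposited intensity (scaled as on the axis, each axis starting at 0) on each array of the 5 genes called lower in aged than in adult KO muscle, by group (aged KO, aged WT, adult KO, adult WT). Filled squares are arrays with poly-A controls, open circles arrays without, and bars the group means. For Atp5pb, Atp5h, Ndufc1 and Ndufb8 all 4 aged KO arrays lie below all adult KO arrays, and for Cox7a1 1 aged KO array, at 13972, lies inside the adult KO range.

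The c-ring of Fo is made of 1 protein encoded by 3 genes. Atp5g2 fell in aged against adult WT muscle, with -0.47 (SE 0.16, adjusted p = 0.0271), while Atp5g1 had -0.22 (SE 0.12, adjusted p = 0.154) and Atp5g3 -0.17 (SE 0.096, adjusted p = 0.157). With the term Atp5g2 was at 0.013 (adjusted p = 0.986), and the mean of its probe sets gave 0.12. None of the 3 was called in the other comparisons. Atp5c1, the gamma subunit and the brightest probe set of complex V, was not called in any, with 0.047 (SE 0.12, adjusted p = 0.785) in aged against adult WT muscle and -0.11 (SE 0.13, adjusted p = 0.688) in aged against adult KO muscle.

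The interaction was called for 11 genes. For Sdhc the KO difference was 0.54 in aged and -0.98 in adult muscle, and for Atp5pb it was -0.46 in aged and 0.029 in adult muscle. The largest positive values were 1.51 (SE 0.33, adjusted p = 0.00345) for Sdhc, 1.13 (SE 0.40, adjusted p = 0.0475) for Ndufb1, 0.80 (SE 0.20, adjusted p = 0.00898) for Atp5a1 and 0.61 (SE 0.17, adjusted p = 0.0155) for Sdha. Sdhb, Uqcrfs1 and Ndufab1 had 0.52, 0.46 and 0.43. The negative ones were -0.76 (SE 0.21, adjusted p = 0.0136) for Cycs, -0.68 (SE 0.17, adjusted p = 0.00742) for Ndufc1, -0.52 (SE 0.16, adjusted p = 0.0271) for Atp5h and -0.49 (SE 0.15, adjusted p = 0.0261) for Atp5pb. With the term the negative ones stayed negative, at -0.67, -0.60, -0.76 and -0.64, with adjusted p of 0.242 to 0.369. Sdhc, Ndufb1 and Atp5a1 turned to -0.21, -0.25 and -0.12.

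Other mitochondrial genes were counted in lists beside the subunits, to be read against the shares of all genes tested, 20.8% lower and 18.1% higher in aged against adult WT muscle. Between aged and adult WT muscle 7 of 14 citric acid cycle genes fell and none rose (median -0.25), led by Ogdh and Dlst of the oxoglutarate dehydrogenase complex at -1.27 (SE 0.16, adjusted p = 3.95e-05) and -0.75 (SE 0.13, adjusted p = 0.000566) and the isocitrate dehydrogenase Idh2 at -0.92 (SE 0.17, adjusted p = 0.000722). Of 8 genes of coenzyme Q synthesis 3 fell (median -0.42), among them Coq8a at -1.56 (SE 0.17, adjusted p = 1.9e-05), Coq10a at -0.80 and Coq9 at -0.79. Of 36 mitochondrial ribosome and translation genes 9 fell and none rose (median -0.30), with Mrpl4 at -0.95, the elongation factor Gfm1 at -0.55 and Mrpl49 at -0.79. The 9 falls among 36 lay near the share of all genes. Of 9 other electron-entry and uncoupling genes 6 fell (median -0.59), with Gpd2 of the glycerol phosphate shuttle at -1.02 (SE 0.12, adjusted p = 3.48e-05), Etfdh, which passes electrons from fat oxidation to coenzyme Q, at -0.70 and the transhydrogenase Nnt at -0.72.

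In the same comparison 5 of 9 carriers and outer membrane channels fell (median -0.31), with Slc25a11 at -0.97, Vdac1 at -0.39 and the mitochondrial creatine kinase Ckmt2 at -0.43. Of 25 assembly factors for complexes II to V 8 fell and 2 rose (median -0.28), with Uqcc1 at -1.56, Cox15 at -0.93 and Atpaf2 at -1.01. Of 5 complex I assembly factors outside the Nduf names 3 fell (median -0.66), Ecsit at -0.80, Acad9 at -0.66 and Foxred1 at -0.82. Of 16 regulators of mitochondrial biogenesis 5 fell and 2 rose (median -0.054), with Yy1 at 0.82, the deacetylase Sirt1 at 2.37 and the mitochondrial DNA polymerase Polg at -0.79. With the term no gene of these 8 lists was called in this comparison, and the median of the ribosome list was 0.18.

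Between aged and adult KO muscle, where 3.68% of all genes rose and 3.75% fell, 1 of the 14 citric acid cycle genes rose and 1 fell, Idh2 at 0.91 (SE 0.18, adjusted p = 0.00637) and Idh3b at -1.13 (SE 0.33, adjusted p = 0.0435), and both were called with the term too, at 0.76 and -1.43. Vdac1, the main outer membrane channel, changed by -0.54 (SE 0.11, adjusted p = 0.00881). Nnt rose (adjusted p = 0.0037), and Vdac1 and Nnt were both also called with the term, at -0.52 and 0.64. Gabpb1, a subunit of the GABP factor that binds ETS sites, rose by 0.88 (SE 0.17, adjusted p = 0.00556) and had 0.82 with the term (adjusted p = 0.0291). In adult KO against adult WT muscle it changed by -0.82 (SE 0.16, adjusted p = 0.00229), and by -0.75 with the term (adjusted p = 0.0415). In adult KO against adult WT muscle, where 7.32% of all genes rose and 9.37% fell, 5 of 14 citric acid cycle genes fell, with Ogdh at -0.69 (SE 0.16, adjusted p = 0.00643), Idh2 at -0.65 and Dlst at -0.50, and none rose. In that comparison 2 of 8 coenzyme Q genes fell (Coq10a at -0.48 and Coq9 at -0.46), and 2 of 9 electron-entry and uncoupling genes (Gpd2 at -0.55 and Nnt at -0.65). None of these 9 genes was called with the term. None of the 36 ribosome genes was called between aged and adult KO muscle without the term, and 7 fell with it (median -0.43).

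In aged KO against aged WT muscle Idh2 rose by 1.18 (SE 0.18, adjusted p = 0.000154), Coq8a by 1.59 (SE 0.18, adjusted p = 9.85e-06), Coq7 by 1.03 (SE 0.25, adjusted p = 0.00498) and the haem A synthase Cox15 by 1.45 (SE 0.21, adjusted p = 9.48e-05). Coq8a and Coq7 were also called with the term, at 0.92 and 1.68, and Idh2 and Cox15 were not, at 0.92 and 0.88 (adjusted p = 0.0722 and 0.101). By list, beside 16.9% higher and 12.5% lower of all genes, 2 of 14 citric acid cycle genes rose and 1 fell, 2 of 8 coenzyme Q genes rose, and 7 of 25 assembly factors for complexes II to V rose and 2 fell. Of 36 ribosome genes 4 rose and 1 fell, of 9 electron-entry and uncoupling genes 3 rose, and of 5 other complex I assembly factors 3 rose. Carriers had 1 of 9 in each direction, and regulators 1 rise and 2 falls of 16.

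The summed markers of fibre types and other cells differed between some of these groups and overlapped between others. The summed intensity of 11 slow oxidative fibre markers was 59980 to 79517 in aged KO muscle against 30671 to 42055 in aged WT muscle, and 44452 to 58327 in adult KO muscle against 45198 to 56164 in adult WT muscle. Mb, Fabp3 and Myoz2, at mean intensities of 25264, 8600 and 8058, weighed most in this sum, while Myh7 had 592. Of these 11 markers 7 rose in aged KO against aged WT muscle, beside 16.9% of all genes, with Tnnt1 at 4.16 and Atp2a2 at 2.35. In aged against adult KO muscle 5 of them rose, beside 3.68%. The 11 fast fibre markers summed to 277670 to 318520 in aged KO, 227080 to 290410 in aged WT, 255090 to 311160 in adult KO and 237910 to 435090 in adult WT muscle, with 1 called in aged KO against aged WT muscle and 1 in aged against adult WT muscle. The 9 neutrophil markers summed to 7209 to 13175 in aged KO muscle against 2676 to 13614 in aged WT muscle, and 522 to 4623 in adult KO muscle against 600 to 1894 in adult WT muscle. S100a9 and S100a8, at mean intensities of 2461 and 1705, weighed most in that sum.

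The 14 endothelial markers summed to 7948 to 10110 in aged KO muscle against 12132 to 14858 in aged WT muscle, and 7747 to 11636 in adult KO muscle against 19023 to 24250 in adult WT muscle. Of the 14 markers 11 fell in adult KO against adult WT muscle, beside 9.37% of all genes. Aqp1, at a mean intensity of 5809, weighed most in their sum. The 13 macrophage markers summed to 7604 to 12229 in aged KO, 3854 to 12961 in aged WT, 4349 to 9023 in adult KO and 4098 to 6477 in adult WT muscle. The 7 fibroblast markers summed to 21742 to 32223 in aged KO, 10800 to 18789 in aged WT, 14072 to 34036 in adult KO and 20353 to 25528 in adult WT muscle. Of the 8 cardiac and 6 adipocyte markers only 2 each were bright enough to test, and no marker was listed at 0 on any array. The part of these cells and of fibre type in the differences of the chain genes was not tested.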

How the data were processed

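RNA of tibialis anterior muscle was measured on 19 arrays. The deposited values are linear intensity readings for each probe set of an array. The submitters' processing notes name MAS5 (version not given in the sources used here). Precision is limited by how many arrays there are. Gene names came from the platform annotation: 20380 of 22690 probe sets had 1 symbol and 691 several. The 64 control probe sets were left out of the tests. Values were taken as log2(value + 4.76), the pseudocount being percentile 10 of all values, and quantile normalized. Differences are on this scale and understate the change of dim genes.

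Each gene was taken from its brightest probe set, and 7436 genes, the upper 60% of 12393 by mean, were tested with limma 3.58.1 in R 4.3.3 (lmFit, eBayes, a mean per group over 19 arrays). Calls are at an adjusted p (Benjamini-Hochberg over all genes tested) under 0.05. Isoform pairs were tested by 2-sided exact permutation. The fit was tested on simulated data. Tables and plots used matplotlib 3.10.9, numpy 2.4.6 and pandas 2.3.3 in Python 3.11.15. The alternatives covered normalization, pseudocount, filter, probe set, variance model, array weights, threshold, the control split as a term, the Gapdh ratio, each array left out and, added after seeing the data, the stem of the title code as a random block (duplicateCorrelation).

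Members, lists and alternatives were chosen with earlier results of these data known. Named were the isoform families, Sdha to Sdhd, Cyc1 and Cycs, up to 5 called rises and 5 falls per comparison, the brightest member of each complex, members with probe sets called in opposite directions, and the 3 genes of smallest p from each list described. Other members were named after their values were seen, where they complete a count, show a limit of one or were called with the control split as a term. Marker lists give sums and counts, with few genes named.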

Additional observations from a re-analysis of the deposited data

Results flagged for a closer look

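Dixon's test was run on normalized log2 values. Of 156 groups of 4 or 5 values tested, 2 held an array far from the others, where chance gives about 1 in 20. Cox7a1 was at 13.65 on aged KO replicate 2, against 13.38 to 13.42 on the other aged KO arrays. The intensities were 13972 against 9652 to 10934, and this array had the highest Gapdh ratio. Ndufb9 read 17318 on adult KO replicate 3, against 17509 to 20452 on the other adult KO arrays, and was far from them after normalization.

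The KO difference itself differed between ages for 11 members by the interaction. The signed KO minus WT difference was higher in aged than in adult muscle for Sdhc (1.51), Ndufb1 (1.13), Atp5a1 (0.80), Sdha (0.61), Sdhb (0.52), Uqcrfs1 (0.46) and Ndufab1 (0.43), and lower for Cycs (-0.76), Ndufc1 (-0.68), Atp5h (-0.52) and Atp5pb (-0.49). These signs do not say in which age the difference was greater in size. None of the 11 was called with the control split as a term. Control signal and group move together in this contrast, since all aged WT arrays and 3 of 5 adult KO arrays carried the controls and no adult WT or aged KO array did.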

How the results depend on the processing

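The count of members called moved with the setting. In adult KO against WT muscle it was 3, and it was 5 with median centring, 5 with no normalization, 1 without a filter on dim genes, 1 with only the groups compared, 7 with a variance trend, 29 with array weights, 1 at an adjusted p under 0.01, and 0 with the control split as a term, with only arrays without controls, or with the term and without arrays of high Gapdh ratio. In aged KO against WT muscle it was 16, and in the order median centring, no normalization, no filter, mean of probe sets, trend and 0.01 it was 1, 8, 7, 10, 25 and 3. It was 1 with the term, 4 without arrays of high Gapdh ratio and 2 with both. In aged against adult WT muscle it was 27, and 7 with median centring, 16 without a filter, 49 with array weights, 11 at 0.01 and 0 with the term, also without arrays of high Gapdh ratio. In aged against adult KO muscle it was 5, and 1 without a filter, 0 with only the groups compared, 9 with a trend, 9 with array weights, 0 at 0.01, 0 with only arrays without controls, 0 without arrays of high Gapdh ratio and 9 with the term and without them. For the interaction it was 11, and 7 with median centring, 6 with no normalization, 5 without a filter, 22 with a trend, 33 with array weights, 3 at 0.01, 0 with the term, 4 without arrays of high Gapdh ratio and 0 with both. The causes were not tested.

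Leaving out each array in turn gave 1 to 7 calls in adult KO against WT muscle, 5 to 16 in aged KO against WT, 17 to 28 in aged against adult WT, 0 to 6 in aged against adult KO and 6 to 15 for the interaction. The calls lost most often were those of Ndufb1 (without any 1 of 14 arrays) and Sdhb (13 arrays) in the interaction and of Ndufs4 (13 arrays) in adult KO against WT muscle. Of 42 calls of named members, 18 held without each array in turn. All 42 held with a pseudocount of 16, a trend, array weights or the brightest deposited probe set, 35 with the title code as a random block, 32 with no normalization, 25 of 33 with only the groups compared, 23 without a filter, 23 without arrays of high Gapdh ratio, 20 with the mean of probe sets, 17 with median centring, 13 at 0.01, 3 with the term, 4 with the term and without arrays of high Gapdh ratio, and 0 of 8 with only arrays without controls.

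Signs turned with the mean of probe sets for Atp5a1 (-0.73 in aged KO against WT, 0.26 in aged against adult WT, -0.82 in the interaction), Sdhd (0.093) and Atp5g2 (0.12), both in aged against adult WT muscle. With the term, and with the term and without arrays of high Gapdh ratio, they turned for Ndufb1 (-0.037 and -0.42) and Atp5a1 (-0.13 and -0.14) in aged KO against WT muscle, and for Cyc1 (0.014 in both) and Atp5g2 (0.013 in both) in aged against adult WT muscle. In the interaction they turned for Ndufb1 (-0.25 and -0.63), Sdhb (-0.088 and -0.15), Atp5a1 (-0.12 and -0.13) and, with the term alone, Sdhc (-0.21).

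Among isoform pairs, Cox7a1 minus Cox7a2 in aged against adult WT muscle no longer passed with median centring (-0.093), no normalization (-0.093) or the mean of probe sets (-0.14), nor did Cox6a2 minus Cox6a1 with the last (-0.45). Median centring and no normalization give the same pair differences by construction, since centring shifts all genes of an array alike. With only arrays without controls Cox7a1 minus Cox7a2 in aged against adult KO muscle (-0.37) and Cox8b minus Cox8a in adult KO against WT muscle (-0.35) did not pass, nor could any value with 2 adult KO arrays. Without arrays of high Gapdh ratio the adjusted p rose to 0.0714 for Cox6a2 minus Cox6a1 in aged WT muscle (-0.35) and for Cox7a1 minus Cox7a2 in aged against adult KO (-0.40), aged KO against WT (-0.21) and aged against adult WT muscle (-0.18), in a family of tests with fewer arrays. Leaving out each array in turn, Cox6a2 minus Cox6a1 ran from -0.11 to 0.04 in adult KO against WT, -0.41 to -0.26 in aged against adult WT, 0.09 to 0.34 in aged KO against WT, -0.21 to 0.04 in aged against adult KO. Cox7a1 minus Cox7a2 ran from -0.03 to 0.05 in adult KO against WT, -0.21 to -0.14 in aged against adult WT, -0.29 to -0.19 in aged KO against WT, -0.47 to -0.38 in aged against adult KO. Cox8b minus Cox8a ran from -0.54 to -0.43 in adult KO against WT, -0.59 to -0.45 in aged against adult WT, -0.03 to 0.33 in aged KO against WT, -0.04 to 0.32 in aged against adult KO. No paired analysis was possible because the labels give no replicate numbers and only 1 stem of the title codes is shared by 2 groups. The stem as a random block (consensus correlation 0.29), chosen after seeing the data, gave 1 call in adult KO against WT muscle and 7 in the interaction, with 17 calls between aged KO and WT muscle, 19 for age in WT and 5 for age in KO muscle.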
